A study of Citrus sinensis with 2 samples.

Results

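The miRNAs described here are miR162, miR168 and miR403, the names whose best-known targets are the plant's own small RNA machinery. They were chosen by name and by no rule on their values, though with earlier results of these data known. All 3 were present among the 1215 known miRNA names counted in leaves of sweet orange [Citrus sinensis (L.) Osbeck]. The Mg-deficient library came from 'Xuegan' seedlings irrigated with 0 mM MgSO4, and the Mg-sufficient (control) library from seedlings given 1 mM MgSO4, both for 16 weeks. Seedlings had been moved to sand-filled pots when 5 weeks old, the treatments began 10 weeks later, and in the Mg-deficient solution Na2SO4 stood in for MgSO4, so the lack of Mg and the added Na cannot be told apart. Each of the 2 libraries was made from fully expanded leaves of 5 plants mixed before RNA extraction. With 1 library per treatment, no difference could be set against a spread between replicates. The extraction protocol in the labels mentions roots in 1 place, whereas the sample labels and the methods give leaves. Only small RNAs were counted, so neither the tissue nor the mRNAs of the targets could be checked in these data.

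In plants, DICER-LIKE 1 (DCL1) cuts most miRNAs out of their hairpin precursors, and ARGONAUTE 1 (AGO1) binds them and uses them to find target mRNAs. The machinery is itself under miRNA control. In Arabidopsis, miR162 directs cleavage of the DCL1 mRNA, miR168 that of AGO1, and miR403 that of AGO2, an argonaute known for antiviral defence. MiR162 thus acts on the enzyme that makes it and miR168 on the argonaute that carries it, which are feedback loops. MiR403 acts on another argonaute of the machinery. No target transcript of citrus was measured or searched here.

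The mature sequences that the study lists for the 3 names are shown because reads of one name can be counted under another when the sequences are alike. They run 5′ to 3′, and the seed, bases 2 to 8, is in capitals.
miR162: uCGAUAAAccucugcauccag
miR168: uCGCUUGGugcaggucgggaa
miR403: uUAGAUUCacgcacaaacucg
All 3 are 21 nt long and begin with U, the first base that AGO1 prefers in Arabidopsis. Their GC content was 47.6% for miR162, 61.9% for miR168 and 42.9% for miR403, and no seed was shared among them or with any other of the 690 names that have a listed sequence. The closest listed sequence to miR168, that of miR869, had 5 mismatches over an overlap of 18 nt, and the closest to miR162 and to miR403 had 7. No name came within 2 mismatches of a member over at least 17 nt, whereas 50 of the 690 names did so with another name. Sequences of the other 525 names were not used here. RefSeq genes of DVS_A1.0, an assembly other than the authors' and used here for names only, were also searched. MiR162 and miR168 each have 1 gene (MIR162 and MIR168). MiR403 has 2 (MIR403A and MIR403B), and the deposited count of miR403 does not separate these genes or the hairpin arms.

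The libraries held 20328011 clean reads (Mg-deficient) and 22218850 clean reads (Mg-sufficient). Counts summed over the known miRNA names equalled 14.8% of the clean reads of the Mg-deficient library and 22.9% of those of the Mg-sufficient library. For both totals the study's own summary gives fewer miRNA reads than these sums, and the gap was larger for the 20328011 reads. How reads matching several names were counted is not given, so the sums need not be numbers of distinct reads. Clean reads still include rRNA and other classes. In the study's summary the rRNA share is larger for the 20328011 reads than for the 22218850 reads. The share of known miRNA counts moves with every level given per clean read. What part either share has in the differences below was not tested. The study's own summary of its reads prints the totals under the opposite treatments. The assignment of the libraries follows the deposited tables, in which each library's RPM equal its counts over the total given here. That match pairs counts with totals and cannot show which library was Mg-deficient. If the treatments were the other way round, every direction given here would be reversed. Levels are given as RPM, meaning counts for each 1000000 clean reads (TPM in the paper). Intervals are 95% intervals (Wilson for a level or a share, exact Clopper-Pearson for a log2 ratio). They cover counting error only, and PCR copies are not independent molecules.

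Measured per clean read, all 3 miRNAs were lower in Mg-deficient leaves. MiR403 stood at 43.6% of its control level, miR162 at 52.0%, and miR168, the most abundant of them, at 81.3%. An abundance filter of 10 RPM in at least 1 library left 324 of the known miRNAs, and the members exceeded 10 RPM in both libraries. A log2 ratio below 0 was found for 191 of the 324, or 59.0%, and for 178, or 54.9%, the counting interval also lay below 0, as it did for all 3 members. For 122, or 37.7%, the interval lay above 0. The shared direction is therefore common per clean read. Per known miRNA count, 121 of the 324 were below 0.

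MiR162, the regulator of DCL1, had 730 counts in the Mg-deficient library, against 1533 counts in the Mg-sufficient library. These counts correspond to 35.9 RPM (33.4 to 38.6) in Mg-deficient leaves and 69.0 RPM (65.6 to 72.5) in Mg-sufficient leaves. The counting intervals of both libraries lie far apart. The log2 ratio of Mg-deficient to Mg-sufficient was -0.94 (-1.07 to -0.81). Among the known miRNA names, miR162 took rank 142 by count in the Mg-deficient library and rank 82 in the Mg-sufficient library.

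MiR168, the regulator of AGO1, had 41638 counts in the Mg-deficient and 55988 counts in the Mg-sufficient library. It was the only abundant member, with 2048 RPM (2029 to 2068) in Mg-deficient leaves and 2520 RPM (2499 to 2541) in Mg-sufficient leaves. The difference was small but exceeded the counting error, with a log2 ratio of -0.30 (-0.32 to -0.28). MiR168 ranked 14th among the names in the Mg-deficient library and 11th in the Mg-sufficient library. Of all counts of the 3 members, 95.9% in the Mg-deficient and 93.1% in the Mg-sufficient library belonged to miR168.

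MiR403, the regulator of AGO2, had 1036 counts in the Mg-deficient library, against 2596 counts in the Mg-sufficient library. Its level was 51.0 RPM (48.0 to 54.2) in Mg-deficient leaves and 117 RPM (112 to 121) in Mg-sufficient leaves. The log2 ratio was -1.20 (-1.30 to -1.09), the lowest of the 3. The rank of miR403 was 120 in the Mg-deficient library and 64 in the Mg-sufficient library. In each library the order of levels was miR168, miR403 and miR162, and no neighbouring intervals in that order overlapped.

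**Figure D1:**
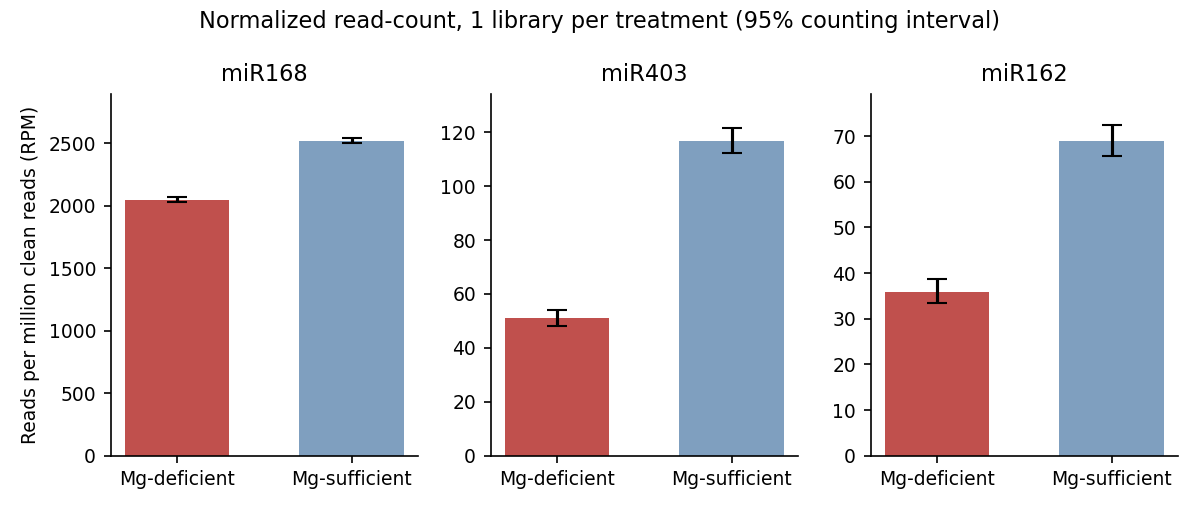
Normalized read-counts (RPM, linear axes from 0, with a separate scale for each miRNA) of miR168, miR403 and miR162 in the Mg-deficient (left) and Mg-sufficient (right) library. Bars are single libraries and whiskers are 95% Wilson intervals of counting error. The whiskers do not overlap for any of the 3, and the gap relative to the bars is smallest for miR168, with 2048 RPM in Mg-deficient and 2520 RPM in Mg-sufficient leaves.

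The study considered a miRNA differentially expressed when its p-value and its fold change both passed a limit. Here the rule was a one-sided p of less than 0.01 and a log2 ratio beyond 1.5 in either direction. The p-values of the exact Audic-Claverie test, a comparison of reads between 2 libraries rather than of the treatments, were 5.67e-51 for miR162, 4.39e-227 for miR168 and 3.23e-124 for miR403. At this depth such values are common, since 295 of the 324 miRNAs (91.0%) were below 0.01. None of the 3 log2 ratios reached 1.5 in size, and 0 of the 3 members were called by both criteria. By the same rule 83 of the 324 miRNAs (25.6%) were called lower and 91 (28.1%) were called higher, 53.7% in either direction. A log2 ratio beyond 1 in place of 1.5 added miR403, in a background of 29.9% called lower, and a linear ratio beyond 1.5 added miR162 and miR403, in a background of 39.8%. These backgrounds include 71 of the 324 that had at most 3 counts in a library. With 10 RPM required in both libraries, as the members have, the rule at 1.5 called 8 of 149 lower and 11 higher.

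Variation between plants could not be estimated. To show what it could do to these values, edgeR's exact test was run with an assumed biological coefficient of variation, with Benjamini-Hochberg adjustment over the 324 miRNAs. The adjusted p was 0.00748 for miR403, 0.0398 for miR162 and 0.542 for miR168 at an assumed value of 0.2. At 0.4 it was 0.274 for miR403, 0.426 for miR162 and 0.836 for miR168. These are values under an assumption, not measured error.

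The members differed among themselves by more than the counting error. The count of one miRNA divided by that of another in the same library does not depend on the library size, and this ratio was compared for the 3 pairs. For every read of miR403 there were 40.2 reads of miR168 in the Mg-deficient library and 21.6 in the Mg-sufficient library. This ratio was 1.86-fold higher in Mg-deficient leaves, a log2 difference of 0.90 (0.79 to 1.00). For every read of miR162 there were 57.0 reads of miR168 in the Mg-deficient and 36.5 in the Mg-sufficient library, a log2 difference of 0.64 (0.51 to 0.77). The 2 less abundant members lay closest together. The ratio of miR162 to miR403 was 0.705 in Mg-deficient and 0.591 in Mg-sufficient leaves, a log2 difference of 0.25 (0.09 to 0.42). In these libraries the reads of AGO1's regulator were thus higher relative to those of the regulators of DCL1 and AGO2 under Mg deficiency. Whether this would recur in other plants was not tested.

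What the members' levels were set against decided the direction of miR168. As a share of all known miRNA counts, miR168 made up 1.39% (1.37 to 1.40%) in the Mg-deficient and 1.098% (1.09 to 1.11%) in the Mg-sufficient library, so that it was higher in Mg-deficient leaves on this measure. MiR162 made up 0.0243% (0.0226 to 0.0261%) of known miRNA counts in the Mg-deficient and 0.0301% (0.0286 to 0.0316%) in the Mg-sufficient library. MiR403 made up 0.0345% (0.0325 to 0.0367%) in the Mg-deficient and 0.0509% (0.0490 to 0.0529%) in the Mg-sufficient library. Both were thus lower in Mg-deficient leaves on either measure. The total of known miRNA counts may hold reads counted under several names, which could not be checked here. The 5 most abundant names held 54.5% of known miRNA counts in the Mg-deficient and 76.5% in the Mg-sufficient library. When these 5 were left out of the total, miR168 made up 3.05% of the rest in the Mg-deficient and 4.68% in the Mg-sufficient library and was again lower.

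Over the 6 library sizes tried, the log2 ratio of miR162 lay between -1.26 and -0.31 and that of miR403 between -1.52 and -0.56, all below 0. That of miR168 lay between -0.62 and 0.34. It was above 0 when levels were set per known miRNA count (0.34) and, by a small margin, with the size factors of DESeq2 (0.069) and the TMM factors of edgeR (0.039). Per clean read the log2 ratios of miR168 and of the median of the 324 miRNAs were both -0.30, and 161 of the 324 had a lower ratio than miR168 and 162 a higher one. For miR162, 100 had a lower ratio and 223 a higher one. For miR403, 88 had a lower ratio and 235 a higher one. Relative to the middle of the miRNAs counted, miR168 thus stood at the centre and miR162 and miR403 below it. A change of library size shifts all names alike and leaves this order as it is.

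**Figure D2:**
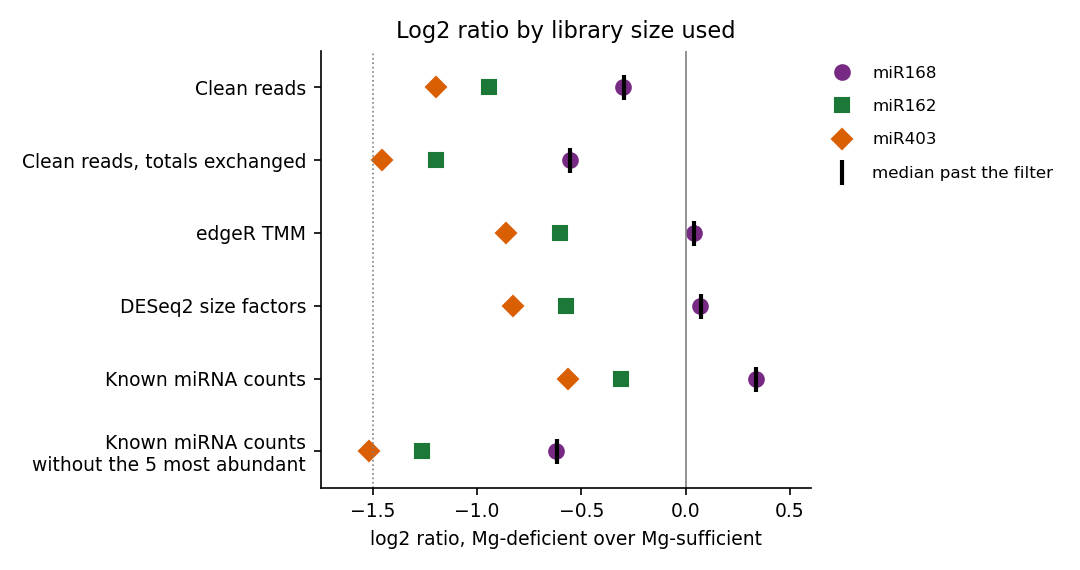
Log2 ratio of Mg-deficient to Mg-sufficient (horizontal axis) of miR168, miR162 and miR403 under 6 choices of the library size (rows), with the median of the miRNAs past the filter as a black tick. The dotted line marks the threshold at -1.5. All points move together between rows, and miR168 stays on the median while it crosses 0.

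Per clean read, most names on a list of conserved miRNAs were also lower, but not per known miRNA count. The list held 34 names from families conserved among flowering plants, with names of 1 family counted separately. All were present in the count table, and 26 of them passed the filter, the 3 members included. Of the other 23, 16 had a log2 ratio and interval below 0 and 7 above, beside 54.9% below and 37.7% above over all 324. Their median was -0.63, beside -0.30 over all 324. Per known miRNA count, a check added after the data were seen, 11 of the 23 were below 0 and 12 above, and with the factors of TMM or DESeq2 16 were below and 7 above. Over all 324, 121 were below 0 per known miRNA count, 159 with TMM and 155 with DESeq2. Among these 23, 5 had a lower ratio than miR403, 7 a lower ratio than miR162, and 16 a lower ratio than miR168. The listed names nearest to miR403 in log2 ratio were miR157 (-1.20), which targets SPL genes of the age pathway, and miR858 (-1.18), a regulator of MYB genes. The nearest to miR162 were miR167 (-0.89), which targets auxin response factors, and miR169 (-0.89), which targets NF-YA genes. The nearest to miR168 were miR172 (-0.37), which targets AP2-like genes, and miR159 (-0.41), which targets GAMYB-like genes. With 1 library per treatment, this likeness rests on 1 ratio for each name.

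**Figure D3:**
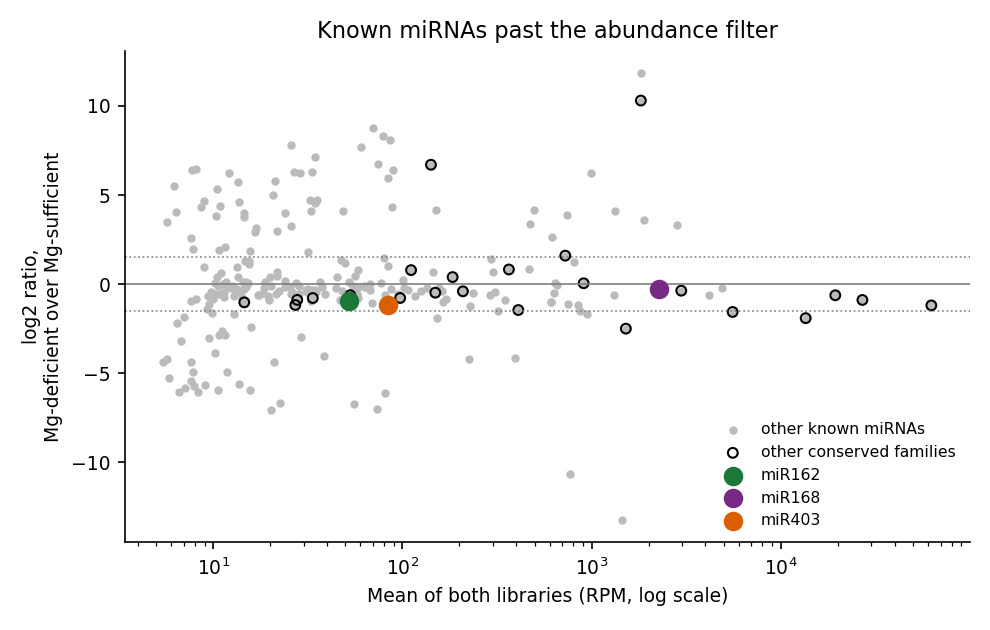
Mean normalized read-count of both libraries (RPM, log axis) against the log2 ratio of Mg-deficient to Mg-sufficient for 253 of the 324 miRNAs past the filter. The other 71 had at most 3 counts in a library and are not drawn. Open circles are other names on the list of conserved miRNAs, coloured points are the members, and dotted lines mark 1.5 in either direction. The members, between -1.20 and -0.30, lie inside the dotted lines among the other conserved names.

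Other names are tied to small RNA production or to secondary siRNAs, and a list of 16 of them was looked up. The table held 13, of which 8 passed the filter, 5 with a log2 ratio below 0 and 3 above. Their median was -0.44, beside -0.30 over all 324. Per known miRNA count 2 were below 0 and 6 above, so the direction of this list also rested on the library size.

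Among the triggers of trans-acting siRNAs (TAS), miR390, which acts in AGO7 on the TAS3 transcript, passed the filter. It had 1453 counts (71.5 RPM) in the Mg-deficient and 2734 counts (123 RPM) in the Mg-sufficient library, a log2 ratio of -0.78 (-0.88 to -0.69). Its level was above that of miR403 in both libraries, though their counting intervals overlapped in the Mg-sufficient library. Its ratio lay between those of miR168 and miR162, with an interval that overlapped that of miR162. MiR173, which acts on TAS1 and TAS2 in Arabidopsis, was scarce, with 16 counts in the Mg-deficient and 70 in the Mg-sufficient library. MiR828, which acts on TAS4, had 3 counts in the Mg-deficient and 6 in the Mg-sufficient library, too few for a comparison.

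A pair of names on the list are tied to DICER-LIKE genes. MiR838 lies in an intron of DCL1 in Arabidopsis. It had 2 counts in the Mg-deficient and 24 counts in the Mg-sufficient library, a log2 ratio of -3.46 (-6.58 to -1.45). It did not pass the abundance filter. MiR1515, which targets DCL2 in legumes, had 247 counts (12.2 RPM) in the Mg-deficient and 324 counts (14.6 RPM) in the Mg-sufficient library. Its log2 ratio of -0.26 (-0.51 to -0.02) was near that of miR168.

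The names linked to phased siRNAs did not share a direction. MiR2118, which targets disease resistance (NBS-LRR) genes, was called lower, with 449 RPM in Mg-deficient and 1453 RPM in Mg-sufficient leaves and a log2 ratio of -1.69 (-1.73 to -1.66). This call was lost with TMM (-1.36), the size factors of DESeq2 (-1.33) and the known miRNA count (-1.06). MiR1507, which targets the same class of genes in legumes, was called higher, with 12.5 RPM in Mg-deficient and 3.15 RPM in Mg-sufficient leaves and a log2 ratio of 1.99 (1.61 to 2.40). It passed the filter only through the Mg-deficient library, where it was higher. MiR482, another regulator of such genes, had a log2 ratio of 0.39 (0.33 to 0.45), from 209 RPM in Mg-deficient and 160 RPM in Mg-sufficient leaves. MiR472 (0.10), also a regulator of such genes, had an interval that included 0, while miR393 (-0.63), a regulator of auxin receptors, and miR6019 (-0.61), known from resistance genes of tobacco, had intervals below 0. MiR161, which targets pentatricopeptide repeat genes in Arabidopsis, had 50 counts in the Mg-deficient and 86 in the Mg-sufficient library. MiR2275, a trigger of phased siRNAs in grass anthers, had 17 counts in the Mg-deficient and 30 in the Mg-sufficient library. Neither passed the filter. The other 3 names, miR2109, miR5300 and miR6027, were not in the table used here.

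**Figure D4:**
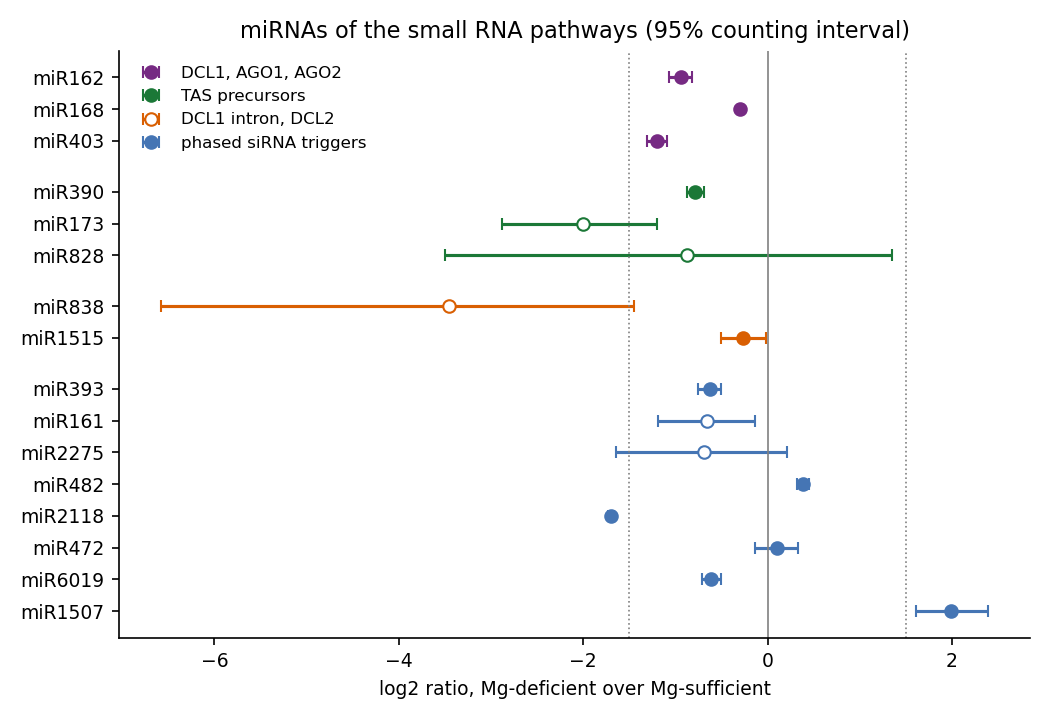
Log2 ratio of Mg-deficient to Mg-sufficient with 95% intervals of counting error for the 3 members and the 13 listed names found in the table, grouped by what they act on or come from. Open points did not pass the abundance filter, and dotted lines mark 1.5 in either direction. Among filled points, miR2118 (-1.69) and miR1507 (1.99) lie outside the dotted lines and the members lie inside them.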

How the data were processed

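Adaptors and reads of low quality were removed by the authors, who kept clean reads that mapped perfectly to the C. sinensis genome (JGI version 1.1) with SOAP, discarded rRNA, tRNA, snRNA and snoRNA reads, and matched the rest to miRBase 21 with up to 2 mismatches. They deposited raw read counts for each known miRNA name and RPM values, the count per 1000000 clean reads. The deposited RPM differed from counts divided by clean-read totals by at most 4.99e-05. How reads matching several names were counted is not given in the sources used here. The deposited comparison table also holds the authors' log2 ratios, p-values and labels, which were not used.

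From the counts, RPM, log2 ratios (0 counts set to 0.01 RPM), intervals and Audic-Claverie p-values were computed over the whole table. The rule for calls was run on simulated data with counting error only and with changes either absent or well beyond the limit. This checks the computation and cannot show how the rule performs with variation between plants. The members and lists were chosen with earlier results of these data known. Named were the members, the small RNA list, names near-identical in sequence, for each member the 2 names of the conserved list nearest in log2 ratio, and its neighbours by level. Alternatives covered library size, pseudocount, filter, threshold, test and summing near-identical names. Tables and intervals were made with scipy 1.17.1, numpy 2.4.6 and pandas 2.3.3 in Python 3.11.15. TMM factors and the exact test came from edgeR 4.0.16, size factors from DESeq2 1.42.0 (R 4.3.3), and plots from matplotlib 3.10.9.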

Additional observations from a re-analysis of the deposited data

How the results depend on the processing

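Adding 1 count and summing near-identical names could hardly move the members, which have at least 730 counts and no near-identical name, and so show nothing of their stability. The library size moved the log2 ratios of all 3 beyond the counting error. With the clean-read totals exchanged and the treatment labels of the counts kept, they were -1.20 for miR162, -0.56 for miR168 and -1.45 for miR403. In that order of names they were -0.60, 0.039 and -0.86 under TMM and -0.57, 0.069 and -0.83 under the size factors of DESeq2. Per known miRNA count they were -0.31, 0.34 and -0.56, and without the 5 most abundant names -1.26, -0.62 and -1.52. These settings shifted the median of all miRNAs past the filter by between -0.32 and 0.63. The number of members called, 0 in the report, became 1 (miR403) without the 5 most abundant names in the total. In that setting 90 of all 324 were called lower. It also became 1 (miR403) with a log2 threshold of 1, beside 97 of 324 called lower, and 2 with a linear ratio of 1.5. Over the table, 226 of 1215 names were called higher and 308 lower without a filter. With 10 RPM required in both libraries, 11 of 149 were called higher and 8 lower. At 50 RPM in at least 1 library, 49 of 147 were called higher and 23 lower. The linear threshold gave 129 lower. No replicates could be left out. No paired analysis was possible because each treatment has 1 library.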

Other observations

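The members share a length of 21 nt and a first base U with 147 other names among the 690 with a listed sequence, 21.7% with the members included. Names of this class held 50.3% of all known miRNA counts in the Mg-deficient library and 68.4% in the Mg-sufficient library. MiR157, 1 name of the class, alone held 25.7% in the Mg-deficient and 38.0% in the Mg-sufficient library, so these shares rest largely on it. The 525 names without a listed sequence are in the total but could not be placed in the class. Of the class without the members, 62 passed the abundance filter. Per clean read, 43 of these had a log2 ratio below 0 and 19 above, and the median was -0.45. Among the names of another length or first base, 222 passed, 126 below 0 and 96 above, with a median of -0.20. Levels per known miRNA count shift log2 ratios by 0.63, which is enough to bring both medians above 0.

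By level, miR162 had the same name directly above it in both libraries. MiR2089 had 761 counts in the Mg-deficient and 1558 counts in the Mg-sufficient library, while miR162 had 730 in the Mg-deficient and 1533 in the Mg-sufficient library. The log2 ratio of miR2089 was -0.91. A name picked for lying next to miR162 in both libraries has a similar ratio by that choice, so the likeness is no result. The listed sequence of miR2089, shown with bases 2 to 8 in capitals for comparison with miR162, is not alike, with 9 mismatches over the best overlap of 17 nt.
miR2089: uUACCUAUgccacccauucc
miR162: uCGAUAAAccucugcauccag
The other neighbours differed more. Directly below miR162 stood miR7129 in the Mg-deficient library (35.2 RPM there, log2 ratio -0.18) and miR5139 in the Mg-sufficient library (68.9 RPM there, log2 ratio -0.60). Around miR168 in the Mg-deficient library stood miR5671, with 2523 RPM against 148 RPM in the Mg-sufficient library, and miR5832, with 40754 counts against 0. In the Mg-sufficient library its neighbours were miR164, with 454 RPM in Mg-deficient and 2581 RPM in Mg-sufficient leaves, and miR5254 (log2 ratio -0.61). Around miR403 stood miR8141 (1039 counts in the Mg-deficient and 2 in the Mg-sufficient library) and miR5807 (log2 ratio 1.78) in the Mg-deficient library, and miR6300 (-0.32) and miR5052 (0.65) in the Mg-sufficient library.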
